A study of Mus musculus with 16 samples.

Results

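A group of 32 mouse genes for epithelial cell junctions, keratins and proteins of the epithelial cell surface was followed through chemical reprogramming, out of 21883 protein-coding genes on chromosomes 1 to 19, X and Y. The group was given as a list of names, and all 32 were found in the RefSeq table. It holds 2 adhesion genes, 4 keratins, 7 desmosome genes, 8 tight junction membrane genes, 4 tight junction scaffold or polarity genes, 2 trafficking genes, 4 genes of surface proteases and their inhibitors, and 1 hemidesmosome gene. A gene end was called covered when a peak overlapped the kilobase on either side of the gene's start or stop, and peaks were also counted within 20 kb of the whole gene span.

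The assay was ATAC-seq, in which a transposase cuts accessible DNA. Day 0 was mouse embryonic fibroblasts (MEF) of the strain labelled 129XOG2, taken from E13.5 embryos and grown in serum medium. Days 2, 4, 6, 8, 10 and 12 were the same fibroblasts, of the OG2 background, in a reprogramming medium whose composition the labels do not state. The last stage was induced pluripotent stem cells (iPSC, called riPSC in the protocol), kept on feeder cells with LIF, CHIR99021 (a GSK3 inhibitor) and PD0325901 (a MEK inhibitor). Feeder cells are usually fibroblasts, and the labels do not say whether they were removed before the iPSC were collected. Each stage had 2 samples but 1 deposited peak list, so every difference given here is between single lists and has no replicate check. In bulk samples, fewer cells with an open site and a less open site per cell cannot be told apart.

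Epithelial cells hold together through adherens junctions, tight junctions and desmosomes, and desmosomes anchor keratin filaments. Fibroblasts lack most of these structures. Reprogramming of fibroblasts is known to pass through a mesenchymal-to-epithelial transition, in which E-cadherin and its partners are switched on. Repressors of the SNAI and ZEB families, active in mesenchymal cells, bind the E-box CAGGTG in promoters of several epithelial genes.

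The 8 lists differed in depth. They held between 31915 peaks (day 12) and 83022 peaks (day 2). The lowest background pileup of a list, which grows with sequencing depth and fragment length, was 1.96 on day 0, 3.08 on day 2, 1.23 on day 4, 2.12 on day 6, 0.682 on day 8, 0.968 on day 10, 0.248 on day 12 and 1.90 in iPSC. Days 0, 4 and 6 thus had a higher background than days 8 and 10. Counts are given as deposited and, where stated, after all lists of higher background were scaled down to the background of day 8. Day 12 lay below that level and has no scaled value. The fold printed for a peak is the authors' value, the ratio of its summit pileup to its background with 1 added to each. It describes that peak within its own list.

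A selection of the members' promoters is shown here. Of the 21 members with a listed promoter, 12 held the E-box. Those shown with it all had a peak over these bases on day 8. The promoters of Rab25, Tjp3, Krt18 and Cldn6 also held it and had none on day 8. Each line gives the 250 bases upstream of the start, 5′ to 3′ on the gene's strand, from RefSeq GRCm38.p6. Capitals mark CAGGTG or its reverse complement CACCTG. Ocln is shown as a promoter without it.

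Epcam (chr17:87635729-87635978, plus strand): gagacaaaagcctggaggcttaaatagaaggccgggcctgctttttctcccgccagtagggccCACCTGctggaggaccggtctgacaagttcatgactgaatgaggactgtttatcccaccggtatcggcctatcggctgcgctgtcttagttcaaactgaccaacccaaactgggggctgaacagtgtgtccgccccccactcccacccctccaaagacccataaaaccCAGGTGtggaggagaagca
Krt8 (chr15:102004343-102004592, minus strand): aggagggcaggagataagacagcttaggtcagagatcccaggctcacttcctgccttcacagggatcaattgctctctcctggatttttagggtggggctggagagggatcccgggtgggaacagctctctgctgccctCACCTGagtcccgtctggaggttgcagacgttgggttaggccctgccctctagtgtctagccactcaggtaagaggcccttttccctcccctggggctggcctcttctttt
Cldn4 (chr5:134946935-134947184, minus strand): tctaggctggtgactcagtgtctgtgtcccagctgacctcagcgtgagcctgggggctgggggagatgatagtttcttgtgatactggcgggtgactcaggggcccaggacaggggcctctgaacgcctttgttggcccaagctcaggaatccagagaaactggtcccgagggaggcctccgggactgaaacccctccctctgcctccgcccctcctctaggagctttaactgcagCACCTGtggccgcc
F11r (chr1:171437311-171437560, plus strand): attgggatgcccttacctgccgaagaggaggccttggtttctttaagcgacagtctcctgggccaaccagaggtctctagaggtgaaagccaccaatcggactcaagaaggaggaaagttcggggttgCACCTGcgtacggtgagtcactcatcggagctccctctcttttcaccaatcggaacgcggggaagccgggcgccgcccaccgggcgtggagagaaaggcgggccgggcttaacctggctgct
Crb3 (chr17:57061951-57062200, plus strand): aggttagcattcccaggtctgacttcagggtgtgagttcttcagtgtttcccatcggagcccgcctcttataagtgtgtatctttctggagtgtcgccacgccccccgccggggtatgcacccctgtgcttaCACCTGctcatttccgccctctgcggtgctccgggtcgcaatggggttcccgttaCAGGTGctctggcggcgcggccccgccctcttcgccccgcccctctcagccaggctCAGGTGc
Ap1m2 (chr9:21312334-21312583, minus strand): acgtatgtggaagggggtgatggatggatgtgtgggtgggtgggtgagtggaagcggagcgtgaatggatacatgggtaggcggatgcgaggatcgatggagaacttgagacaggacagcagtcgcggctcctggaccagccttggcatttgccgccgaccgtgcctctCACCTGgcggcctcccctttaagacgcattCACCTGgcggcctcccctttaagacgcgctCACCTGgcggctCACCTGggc
Ocln (chr13:100552719-100552968, minus strand): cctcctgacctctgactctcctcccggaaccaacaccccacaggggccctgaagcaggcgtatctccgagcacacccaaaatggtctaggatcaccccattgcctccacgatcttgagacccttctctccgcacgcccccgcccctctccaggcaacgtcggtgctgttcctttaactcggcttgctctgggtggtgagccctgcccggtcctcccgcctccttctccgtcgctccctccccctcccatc

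With the 1 kb window, few of the 32 genes had a covered end in fibroblasts, and most had one on days 8 and 10. On day 0, 8 of 32 were covered, against 55% of all protein-coding genes. The count was 22 on day 2 (62.2% of all genes), 8 on day 4 (51.6%), 9 on day 6 (54.5%), 26 on day 8 (55.2%), 26 on day 10 (56.4%), 11 on day 12 (44.3%) and 22 in iPSC (58.6%). From day 0 to day 10 the share of all genes lay between 51.6% and 62.2%, while that of the junction genes lay between 25% and 81.25%.

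**Figure D1:**
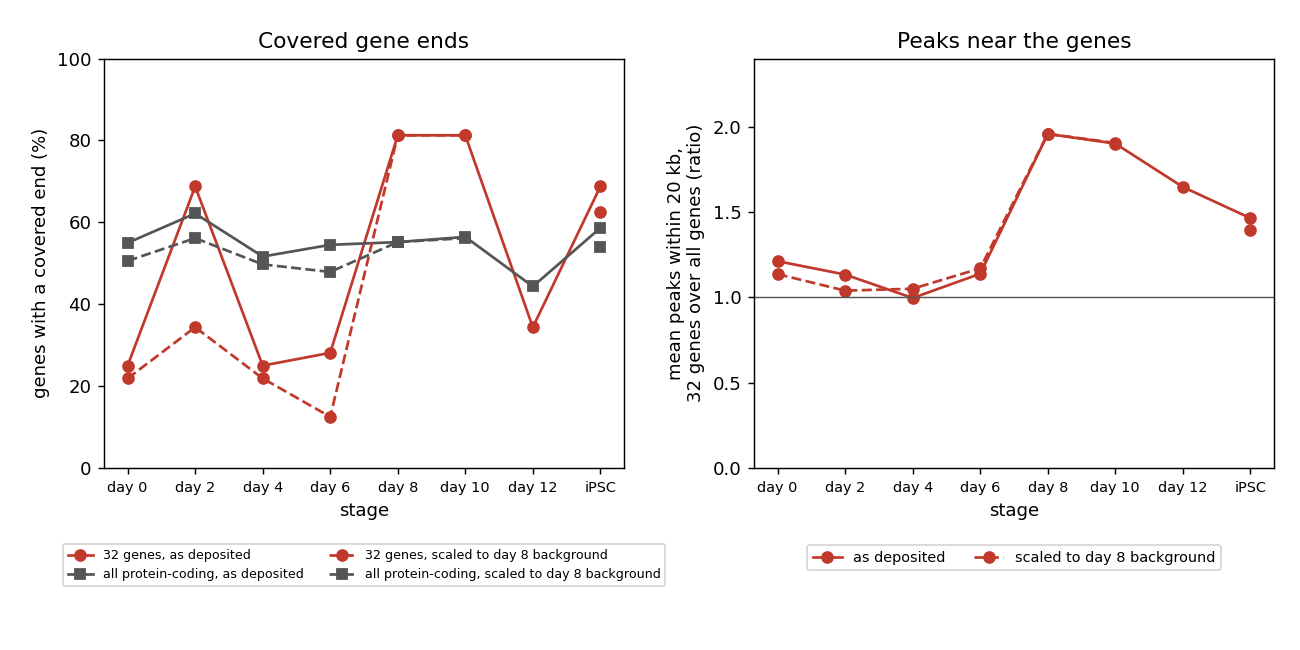
Left, share of genes with a covered end (%) at each stage, for the 32 genes (circles) and all protein-coding genes (squares), as deposited (solid) and scaled to the background of day 8 (dashed, no value on day 12). Right, mean number of peaks within 20 kb, as the ratio of the 32 genes to all genes; the horizontal line is a ratio of 1. On the left, the genes lie below the genome on days 0, 4 and 6 and above it on days 8 and 10.

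The count rose from day 6 to day 8, although day 6 had the higher background and the longer list. Of the 32 genes, 18 were covered on day 8 and not on day 6 (5.95% of all genes). Only Cgn was covered on day 6 and not on day 8 (5.27%), although its listed promoter, inside the gene span, was covered in all 8 lists. Of the 23 genes not yet covered on day 6, the 18 made up 78.3%, whereas 13.1% of all genes without a day 6 peak had one on day 8. The 9958 genes behind the latter share included 6507 covered in no list, and the 23 included 2 such genes, Tjp3 and Rab25. At the day 8 background, 4 genes were covered on day 6 (47.9% of all genes) and 26 on day 8. Of these stages, 23 were then covered on day 8 alone (10.3% of all genes). Lists at an equal background can still differ in length. Days 6 and 8 held 39095 and 40159 peaks at the day 8 background, and 14579 and 29414 at the day 12 background. At the latter, 30.1% and 51.2% of all genes were covered. The part of list length in the rise was not tested.

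The day 2 count depended on depth, as did that of day 6. Scaled to the day 8 background, day 2 kept 11 of its 22 genes (56.1% of all genes) and day 6 kept 4 of its 9, while day 0 kept 7 (50.6%), day 4 kept 7 (49.7%), day 10 kept 26 (56.1%) and iPSC kept 20 (54%). As deposited, 14 genes were covered on day 2 and not on day 0 (8.59% of all genes), and 6 at the matched background (7.51%): Dsg2, Dsc2, Pkp2, Cldn3, Marveld2 and Ap1m2. The remaining day 2 peaks, among them those of Cdh1, Cldn4, Ocln, Tjp1, St14 and Itgb4, did not pass at the matched background.

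**Figure D2:**
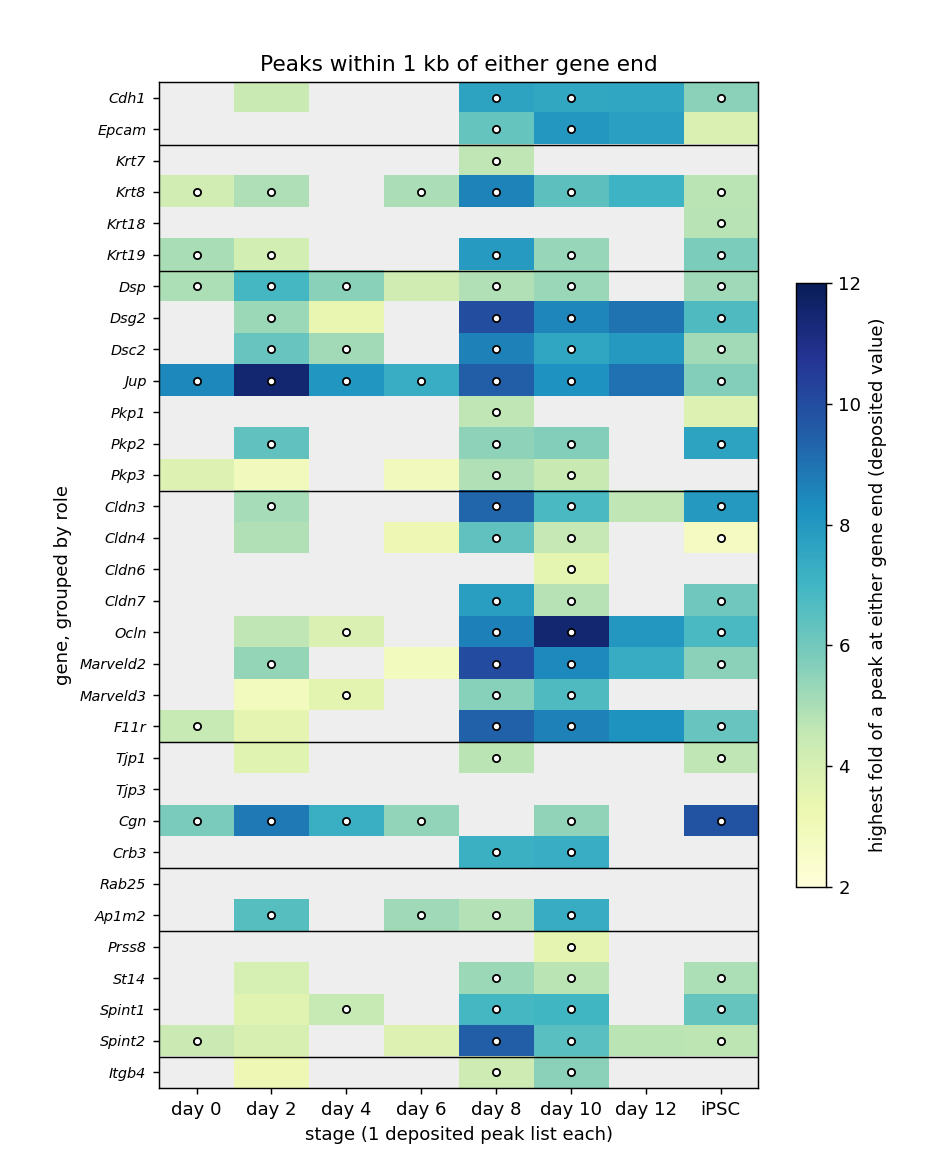
Each row is 1 of the 32 genes, grouped by role, and each column 1 stage; colour gives the highest fold of a peak within 1 kb of either gene end, grey means no peak, and an open circle marks an end still covered at the day 8 background (not computed for day 12). Colours are read within a column. Days 8 and 10 are filled for 26 genes each, and Jup is filled in all 8 columns.

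The 2 adhesion genes were covered late and together. Cdh1 (chr8:106603350-106670247), which encodes E-cadherin, the cadherin of epithelial adherens junctions, had no end peak on days 0, 4 and 6. Its peak had a fold of 4.41 on day 2, 7.64 on day 8, 7.50 on day 10, 7.53 on day 12 and 5.53 in iPSC. The day 2 peak did not pass at the day 8 background, and those of days 8 and 10 and of iPSC did. Epcam (chr17:87635979-87651127), an epithelial adhesion molecule, had no end peak on days 0, 2, 4 and 6 and had one on day 8 (fold 6.26), day 10 (8.05), day 12 (7.77) and in iPSC (3.86). The iPSC peak of Epcam was lost at the day 8 background.

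Within 20 kb of Cdh1 there were 5, 3, 1, 3, 8, 9, 5 and 5 peaks in order from day 0 to day 12 and iPSC. These peaks formed 15 regions, and 7 of them occurred in intermediate lists alone. One region upstream of the gene, chr8:106588408-106589068, was covered on days 8, 10 and 12 (folds 10.95, 9.83 and 9.64) and in no other list. A region beyond the other end, chr8:106674663-106675508, was covered on those days and also in iPSC. Inside the gene, chr8:106619442-106620101 was covered on days 0, 6 and 8 and in iPSC, and chr8:106632072-106633580 on days 8 and 10 and in iPSC. The neighbouring start of Tango6 was covered in all 8 lists. Around Epcam, by contrast, there were between 0 and 2 peaks in any list, and its end region was the only one of its 4 regions found in more than 1 list.

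**Figure D3:**
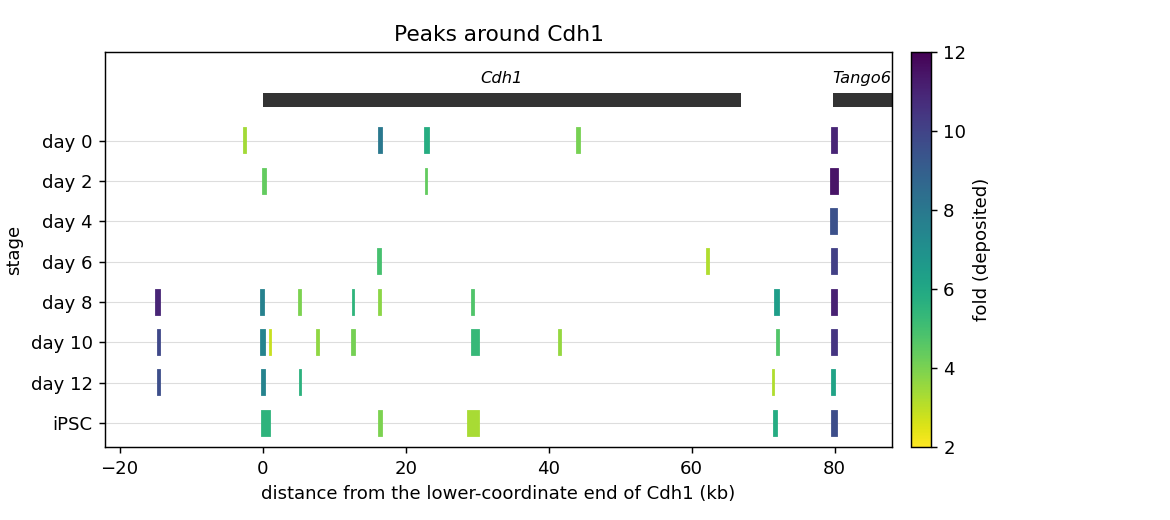
Peaks of the 8 lists around Cdh1, by distance from the lower-coordinate end of the gene (kb); each bar is a peak drawn to scale, coloured by its fold within its list, and black bars are genes. The end of Cdh1 carries a peak on days 2, 8, 10 and 12 and in iPSC, and the region near −15 kb on days 8, 10 and 12.

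The keratins, which form the intermediate filaments of simple epithelia, did not move as one. Krt8 (chr15:101996711-102004342, minus strand) had a covered end in 7 lists, all but day 4. A region inside the gene about a kilobase from its start, chr15:102002903-102003752, was covered in all 8 lists, with folds from 4.18 on day 0 to 7.09 on day 12. On day 4 that peak lay just outside the end window. The promoter itself behaved differently: chr15:102004303-102004683, which takes in the start and the upstream sequence shown above, was covered on day 8 (fold 5.71) and day 10 (4.47) alone. The region at the other end of the gene, shared with the end of Krt78, was covered on days 8, 10 and 12 alone.

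Krt18 (chr15:102028216-102032026), the filament partner of Krt8, lies 23873 bp away on the plus strand, and the pair share part of their windows. Its start was covered in iPSC (fold 4.73) and at no other stage, although peaks lay within 20 kb of it at every stage, from 1 (day 4 and iPSC) to 6 (day 10). Between the 2 genes, chr15:102010385-102011241 was covered on days 2, 4 and 6 alone (folds 8.08, 7.41 and 7.18). A neighbouring region on the Krt18 side, chr15:102013399-102014008, was covered on days 8, 10 and 12 alone (4.87, 5.21 and 4.64). None of the 4 regions within reach of both genes was covered in iPSC.

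**Figure D4:**
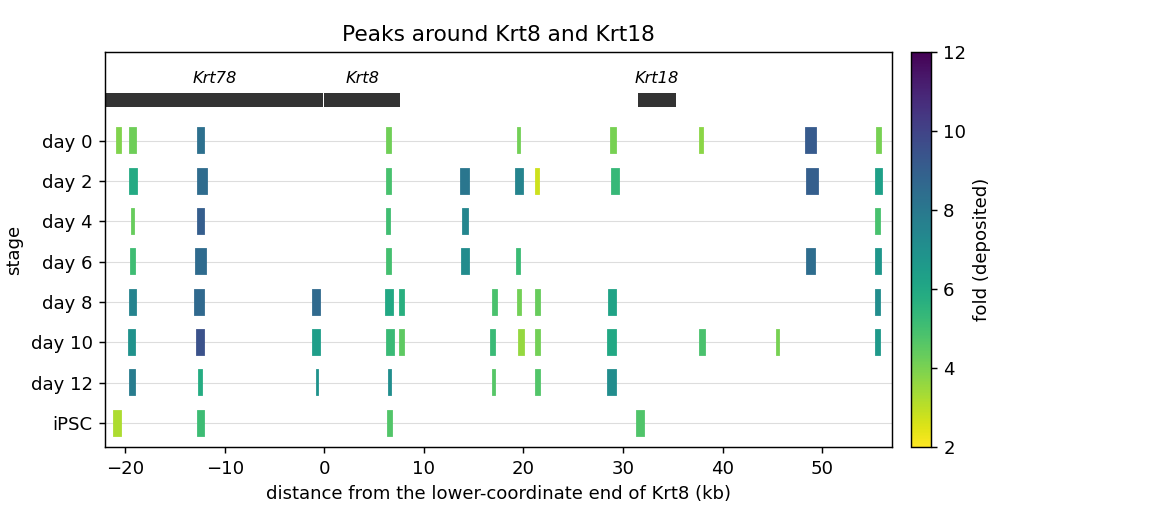
Peaks of the 8 lists around Krt8 and Krt18, by distance from the lower-coordinate end of Krt8 (kb), drawn as in the plot of Cdh1. The start of Krt8, near 8 kb, has peaks on days 8 and 10, the region near 14 kb on days 2, 4 and 6, the region near 17 kb on days 8, 10 and 12, and the start of Krt18 in iPSC.

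Krt19 (chr11:100140810-100145926) was covered on day 0 (fold 5.04), day 2 (4.09), day 8 (7.91) and day 10 (5.34) and in iPSC (5.82), and on none of days 4, 6 and 12. Krt7 (chr15:101412403-101427806) was covered on day 8 alone (fold 4.64), from a summit pileup of 11. It had no peak at all within 20 kb on days 4 and 6.

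Among the 7 desmosome genes, all were covered on day 8, against 3 on day 0, 6 on day 2, 4 on day 4, 3 on day 6, 6 on day 10, 3 on day 12 and 6 in iPSC. Jup, plakoglobin, a catenin of both desmosomes and adherens junctions, was the single gene of the 32 covered in all 8 lists (36.9% of all genes), with folds from 5.71 in iPSC to 11.46 on day 2. The cadherins Dsg2 and Dsc2 shared a pattern: both were covered on days 2, 4, 8, 10 and 12 and in iPSC, and on neither day 0 nor day 6. At Dsg2 the folds were 5.25 on day 2 and 9.96, 8.50 and 8.98 on days 8, 10 and 12, and 6.69 in iPSC, and the day 4 peak did not pass at the day 8 background. Dsg2 was also the desmosome gene with the most peaks within 20 kb, namely 3, 5, 3, 4, 5, 6, 8 and 10 from day 0 to iPSC.

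Desmoplakin (Dsp, chr13:38151294-38198577), which ties desmosomes to keratin filaments, was covered in every list but day 12, and the place of its best end peak differed. On days 0, 2, 4 and 6 and in iPSC the best peak had its summit between 1172 and 1503 bp inside the gene. On days 8 and 10 that inner region was still covered, beyond the end window, and another peak had its summit 246 and 38 bp inside the start. The plakophilins, armadillo proteins of the desmosomal plaque, were mixed. Pkp2 was covered at its higher-coordinate end on day 2, at its lower-coordinate end on days 8 and 10, and at both in iPSC. Pkp1 was covered on day 8 and in iPSC. Pkp3 was covered on days 0, 2, 6, 8 and 10, and was the only one of the 32 covered on day 0 and not in iPSC (5.02% of all genes). Its peaks lay at the lower-coordinate end on days 0, 2 and 6 and at the opposite end on days 8 and 10. Those of days 0, 2 and 6 did not pass at the day 8 background. At that background 0 of the 32 genes were covered on day 0 and not in iPSC. An end of Sigirr lies within 1 kb of an end of Pkp3.

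All 8 tight junction membrane genes were covered on day 10 and 7 on day 8, all but Cldn6, against 1 on day 0 (F11r), 6 on day 2, 2 on day 4, 2 on day 6, 4 on day 12 and 6 in iPSC. At the day 8 background none remained on day 6. Claudins form the paracellular seal. Cldn7 had a covered end on day 8 (fold 7.81), day 10 (4.80) and in iPSC (6.04) alone. The same region was also covered on day 2 (4.15), by a peak beyond the end window. Cldn4 (chr5:134945123-134946934) had end peaks on day 2 (4.86), day 6 (3.17), day 8 (6.36) and day 10 (4.53) and in iPSC (2.76), and those of days 2 and 6 did not pass at the day 8 background. Cldn3, its neighbour at 39279 bp, was covered on days 2, 8, 10 and 12 and in iPSC. Cldn6 was covered on day 10 alone (3.56).

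Occludin (Ocln, chr13:100496504-100552718), a tight junction strand protein, was covered on day 2 (fold 4.63), day 4 (3.84), day 8 (8.66), day 10 (11.45) and day 12 (8.05) and in iPSC (6.79). Its counts within 20 kb were 4, 5, 4, 5, 6, 8, 4 and 4. The related Marveld2, tricellulin of three-cell contacts, had peaks at its stop end on days 2 and 6, and at its start, which lies beside an end of Rad17, on days 8, 10 and 12 and in iPSC. Marveld3 was covered at both ends on day 2, at its lower-coordinate end on day 4 and at its higher-coordinate end on days 8 and 10. F11r, the junctional adhesion molecule JAM-A, was covered on days 0, 2, 8, 10 and 12 and in iPSC, with folds of 4.49, 3.50, 9.40, 8.63, 8.16 and 6.20.

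The 4 scaffold and polarity genes each had a pattern of their own. Tjp3 was covered in no list (29.7% of all genes). Tjp1 (chr7:65296165-65527850), the scaffold on the inner face of tight junctions, had an end peak on day 2 (fold 3.68), day 8 (4.73) and in iPSC (4.65). The promoter that RefSeq lists for it lies inside this gene span, and its 250 upstream bases were covered in all 8 lists. Tjp1, whose gene span is long, had the most peaks within 20 kb of any member when summed over the lists: 11, 16, 6, 11, 12, 16, 8 and 9. In iPSC Dsg2 had more, with 10. Cingulin (Cgn) had a covered end on days 0, 2, 4, 6 and 10 and in iPSC but not on days 8 and 12. The listed promoter of Cgn also lies inside its gene span, and its upstream bases were covered in all 8 lists. With an end window of 2.5 kb, Cgn was covered on days 8 and 12 too. Crb3, the small Crumbs protein of the apical domain, was covered on days 8 and 10 alone. On day 8 a peak of fold 3.20 had its summit 10 bp upstream of the Crb3 start. The stronger peak that also touched the window (fold 7.19) had its summit 1649 bp upstream, in a region reaching the end of Slc25a23 that was covered in all 8 lists. On day 10 the single peak at the Crb3 end was 2635 bp wide and had its summit in that region, 1696 bp upstream.

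Of the 2 trafficking genes, Rab25, a small GTPase of apical recycling, was covered in no list, with between 2 and 6 peaks within 20 kb. Ap1m2, the medium subunit of the epithelial clathrin adaptor for basolateral sorting, was covered on days 2, 6, 8 and 10. On days 2 and 6 the summit lay 1197 and 1162 bp upstream of the start. On days 8 and 10 a peak had its summit 34 and 15 bp upstream, within the sequence shown above. The further upstream peak was also present on day 10, at 1161 bp, with a fold of 7.32 against 6.88 at the start.

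The protease matriptase (St14, chr9:31088590-31131811) had an end peak on day 2 (fold 4.00), day 8 (5.28) and day 10 (4.70) and in iPSC (4.94). About 10 kb outside the gene, chr9:31078658-31078921 was covered on days 4, 8, 10 and 12 alone. Its folds of 8.84, 17.69, 17.18 and 18.79 and its score of 687 on day 10 made it the best-scored region near the 32 genes among those in intermediate lists alone. The peaks within 20 kb of St14 numbered 1, 5, 2, 3, 4, 3, 3 and 8. Prostasin (Prss8), another membrane protease, was covered on day 10 alone. Of the Kunitz-type inhibitors of these proteases, Spint1 was covered on days 2, 4, 8 and 10 and in iPSC, and Spint2 in every list but day 4. Itgb4 (chr11:115974725-116008412), the integrin subunit of hemidesmosomes, was covered on day 2 (3.17), day 8 (4.28) and day 10 (5.55), the day 2 peak being lost at the day 8 background. Its counts within 20 kb were 8, 11, 3, 8, 10, 9, 3 and 8.

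Days 8 and 10 were thus the stages at which the most members shared a covered end. Of the 32 genes, 8 were covered on both and on none of days 0, 4 and 6 (2.05% of all genes): Cdh1, Epcam, Pkp2, Cldn3, Cldn7, Crb3, St14 and Itgb4. At the day 8 background, 8 genes were covered on both and on none of days 0, 2, 4 and 6 (2.41%): Cdh1, Epcam, Pkp3, Cldn4, Cldn7, Crb3, St14 and Itgb4.

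The iPSC list kept many of these ends but not all. Of the 32 genes, 15 were covered in iPSC and not on day 0 (8.67% of all genes), 2 lists of similar background. Another 8 were covered on day 8 or 10 and not in iPSC (6.01%): Krt7, Pkp3, Cldn6, Marveld3, Crb3, Ap1m2, Prss8 and Itgb4. The reverse held for Krt18 alone (5.26%). From day 10 to day 12, 15 genes lost their end peak and none gained one (13.8% and 1.69% of all genes). At the background of day 12, 23 genes were covered on day 8 (51.2% of all genes), 21 on day 10 (50.2%), 11 on day 12 (44.3%) and 9 in iPSC (34.7%), against 1 on day 0 (31.7%), 3 on day 2 (39.6%), 3 on day 4 (34.7%) and 1 on day 6 (30.1%).

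Peaks within 20 kb were also most numerous on days 8 and 10. Their sum over the 32 genes was 105, 148, 70, 109, 152, 160, 93 and 132 from day 0 to iPSC. Relative to all genes, the mean per gene was 1.21 times on day 0, 1.13 on day 2, 1.00 on day 4, 1.14 on day 6, 1.96 on day 8, 1.90 on day 10, 1.65 on day 12 and 1.46 in iPSC. The median gene of the group had 4 peaks on day 8 and 5 on day 10, against 2 over all genes. On day 8, 25 genes had more peaks than on day 6 (22.6% of all genes) and 3 had fewer (37.4%), namely Pkp1, Pkp2 and Spint2. The windows were of ordinary size, with a median of 58.1 kb against 57.2 kb over all genes, and per 100 kb of window the median was 7.58 peaks on day 8 against 2.66.

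**Figure D5:**
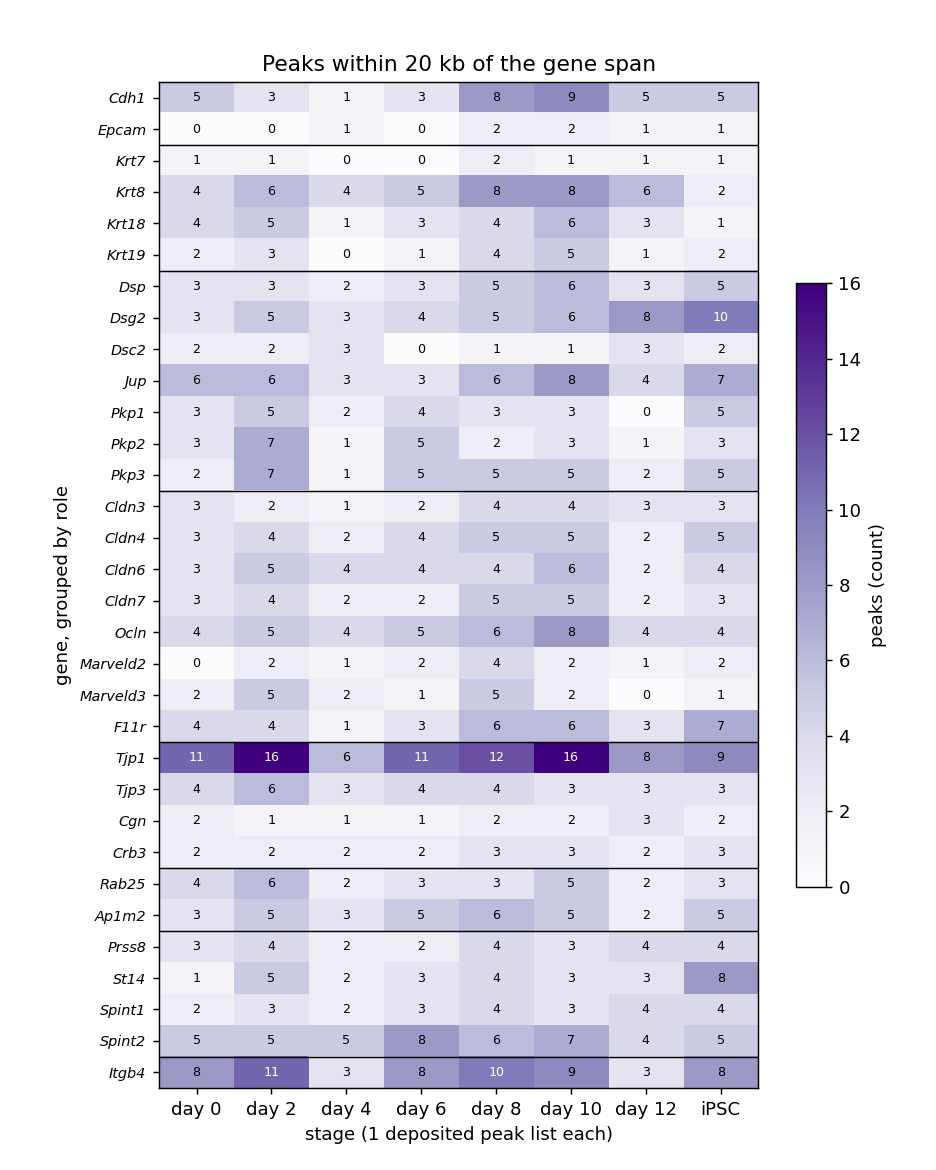
Number of peaks within 20 kb of each of the 32 genes (rows, grouped by role) at each stage (columns), printed in the cells and shown as shade. Tjp1 has the most on days 2 and 10, with 16, and Epcam never more than 2.

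The 317 regions within 20 kb of the genes were set against the 114786 near any protein-coding gene. By end points, 57 were covered both on day 0 and in iPSC, 47 on day 0 only, 70 in iPSC only and 143 in intermediate lists alone. Those shares were 18.0%, 14.8%, 22.1% and 45.1%, against 13.3%, 18.9%, 19.6% and 48.2% over all genes. Of the regions near the 32 genes, 35 (11.04%) were covered on days 8 and 10 and on none of days 0 to 6, against 4.72% of all. Of the iPSC-only regions, 38.6% were covered on day 8 and 5.71% on day 6, against 16.6% and 9.35% over all genes. Regions of day 0 that were absent in iPSC were covered on day 8 in 34.0% of cases, against 15.2%. More of the regions near the 32 genes lay at a gene end: 38.6% against 12.6% for iPSC only, and 19.1% against 8.76% for day 0 only. They include the members' own ends counted above, so these shares are not separate from those counts. The part of gene ends in the region shares was not tested.

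Regions were ranked by their score in iPSC, or on day 0 for those covered there and not in iPSC. The best-scored iPSC-only regions lay inside Tjp1 (chr7:65454157-65454778, covered on day 6 and in iPSC) and on either side of Crb3. Of the pair at Crb3, chr17:57070763-57071230 was covered on days 8 and 10 and in iPSC, and chr17:57047489-57047829 on day 12 and in iPSC. Among regions of both end points the best scored in iPSC were all covered in all 8 lists and lay at gene ends: those of Cdkn2d near Ap1m2, of Slc25a23 and Crb3, and of Kat8 near Prss8. The best of day 0 only lay at the ends of Hcfc1r1 and Tnfrsf12a near Cldn6 (covered from day 0 to day 10) and inside Pkp2. At Pkp2, chr16:16215647-16217579 was covered on days 0, 2 and 6, and chr16:16223951-16224981 from day 0 through day 12. In the intermediate class, the St14 region and that between Krt8 and Krt18 were joined by chr13:100533872-100534563 inside Ocln, covered on days 2, 4 and 6 with folds of 9.15, 9.33 and 9.02.

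A window of 2.5 kb raised the count on day 0 to near the share of all genes, so the low day 0 count depended on the window. With it, 20 of the 32 genes had a covered end on day 0 (61.1% of all genes), 28 on day 2 (68.2%), 12 on day 4 (57.2%), 17 on day 6 (61.0%), 30 on day 8 (61.3%), 28 on day 10 (62.4%), 17 on day 12 (49.96%) and 28 in iPSC (64.8%). The 12 of day 4 were 37.5% of the group. Of the 12 genes added on day 0, 5 had a peak that also lay within 1 kb of another gene's end. Leaving out the 10 genes with another gene's end within 1 kb of theirs left 22, of which 6, 18, 8, 6, 20, 18, 9 and 19 were covered from day 0 to iPSC.

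The upstream end of the gene span, called the start here, was followed for the 21 genes whose strand the RefSeq promoter table gives. This count was chosen after the positions of the peaks were seen. In Tjp1 and Cgn the listed promoter lies inside the span, so peaks at it were not counted here. Motifs and coverage of upstream bases, given below, were taken at the listed promoter instead. A peak summit lay within 500 bp of the start in 3 genes on day 0 (43.9% of all 17491 genes of known strand), 7 on day 2 (47.8%), 3 on day 4 (42.8%) and 3 on day 6 (44%). The count was 14 on day 8 (46.6%), 12 on day 10 (47.2%), 5 on day 12 (38.5%) and 9 in iPSC (46.6%). The 14 of day 8 were F11r, Spint1, Cldn4, Cldn3, Spint2, Tjp1, Ap1m2, Jup, Dsp, Ocln, Marveld2, Krt7, Krt8 and Crb3. At the day 8 background, 1 gene, Jup, remained on day 6 (39.8%). The listed promoters of Tjp1 and Cgn were also covered there, away from the span end.

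Of the 21 listed promoters, 12 (57.1%) held CAGGTG on either strand in their 250 upstream bases, against 16.5% of all 17491. They were F11r, Rab25, Cldn4, Spint2, Ap1m2, Tjp3, Krt7, Krt8, Krt18, Cldn6, Crb3 and Epcam. Ap1m2 held 4 copies, Crb3 and Spint2 held 3 each, and Epcam and Rab25 held 2 each. In Epcam, Cldn4, Crb3, Ap1m2 and Spint2 a copy ended within 14 bp of the start. AACNNGTT, a form of the GRHL motif, was found in Rab25 and Cgn (9.52% against 3.73%). TGANTCA, the AP-1 motif, was found in F11r and Cldn4 (9.52% against 6.22%), and GGGCGGG, bound by SP and KLF factors, in 10 promoters (47.6% against 31.2%). No 2 of these matches overlapped in a member's promoter. The members' upstream bases had a median GC content of 62%, against 55.2%, and how much of the motif shares goes with base composition was not tested. A match is a run of letters and not a measured binding site.

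Coverage of these 250 bases was then split by the motif. Of the 12 promoters with CAGGTG, 2 were covered on day 0 (39.5% of all promoters with the motif), 3 on day 2 (47.9%), 0 on day 4 (37.3%), 2 on day 6 (38.5%), 8 on day 8 (45.4%), 8 on day 10 (47.5%), 1 on day 12 (33.8%) and 4 in iPSC (48.9%). Of the 9 without it, 3 were covered on day 0 (51.2% of all promoters without the motif), 6 on day 2 (57.6%), 4 on day 4 (48.3%), 3 on day 6 (50.1%), 7 on day 8 (51.2%), 8 on day 10 (52.3%), 6 on day 12 (39.9%) and 7 in iPSC (52.9%). At the day 8 background, 0 of the 12 were covered on day 2 (42.3% of all with the motif), day 4 (35.9%) and day 6 (33.8%), while 4, 4 and 3 of the 9 were (53.9%, 47.5% and 46.4% of all without it). On each of these days those of the 9 included Cgn, Tjp1 and Jup, whose upstream bases were covered in all 8 lists. The only others were Cldn3 on day 2 and Ocln on day 4. The 8 of the 12 covered on day 8 were F11r, Cldn4, Spint2, Ap1m2, Krt7, Krt8, Crb3 and Epcam. Of these, F11r and Spint2 had also been covered on day 0. Ocln, shown above without the E-box, was covered on days 2, 4, 8, 10 and 12 and in iPSC.

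Marker lists of other cell types were counted in the same way. Of 15 fibroblast and mesenchyme genes, 14 were covered on day 0, 15 on day 2, 13 on day 4, 15 on day 6, 9 on day 8, 10 on day 10, 5 on day 12 and 11 in iPSC. The order of days 6 and 8 depended on the scaling: at the day 8 background 11 were covered on day 6 and 9 on day 8, and at the day 12 background 2 and 8. Of 12 pluripotency genes, the counts were 3, 4, 2, 5, 7, 7, 6 and 8, and of 8 endoderm genes 2, 4, 2, 3, 5, 6, 2 and 4. Of the pluripotency genes, Esrrb and Lin28a were covered in no list, Sox2 in all but day 12 and Tfcp2l1 in all but day 4. Klf4 was covered in all but day 4 and iPSC, Nr5a2 on days 8, 10 and 12, and Tdgf1 on days 2, 4 and 6 and in iPSC. Zfp42 and Dppa5a were covered from day 8 on, and Nanog and Dppa4 in iPSC alone. The defining pluripotency gene Pou5f1 was covered from day 6 on. The OG2 strain carries a reporter with Pou5f1 regulatory sequence, whose reads would map to the same place (background knowledge). The part of a changed mix of cells in the result for the junction genes was not tested. Of 12 housekeeping genes, 10 or 11 were covered at every stage but day 12, where 7 were.

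A further 42 junction and keratin genes outside the group gave a comparison. Their covered ends numbered 19, 28, 15, 19, 19, 27, 19 and 28 from day 0 to iPSC. Between day 6 and day 8, 5 of them gained a covered end (Prkcz, Afdn, Ppl, Evpl and Gjb2) and 5 lost one (Cldn10, Nectin1, Dsc3, Plec and Dst), where the group of 32 had 18 and 1. These equal numbers rest on the lists as deposited. At the day 8 background the 42 genes had 14 covered ends on day 6 and 19 on day 8, and at the day 12 background 4 and 18, where the group of 32 had 4 and 26, and 1 and 23. Keratins of stratified epithelia, Krt5 and Krt14, were covered in no list. Of the other keratins among the 42, Krt15 was covered on day 10 alone, Krt17 in iPSC alone and Krt20 on day 2 alone. Krt23 was covered on days 2, 10 and 12, and Krt80 in all lists but day 12. The catenin genes Ctnnb1 and Ctnna1 and the polarity genes Pard3, Pard6b and Patj were covered in all 8 lists. The catenin gene Ctnnd1 was covered on days 10 and 12 and in iPSC, and the polarity gene Prkcz in all lists but days 0 and 6.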

How the data were processed

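ATAC-seq was measured in 16 samples, 2 for each of 8 stages. The authors deposited 1 peak list per stage. The sources used here do not give how a stage's 2 samples were joined, nor any correction for the Tn5 offset. The submitters' processing notes name mm10 as the build and list MACS2 2.1.2, Bowtie2 2.2.5, fastp 0.20.1, deepTools 3.4.3 and SAMtools, without saying what each did or with which settings. The deposited lists give each peak's position, a score, a fold (the ratio of summit pileup to background, with 1 added to each), a −log10 p-value and a −log10 q-value, which the authors' caller wrote. Between 36 and 57 peaks per list outside chromosomes 1 to 19, X and Y were left out. No value column was left unmapped.

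With 1 list per stage there is no replicate spread, so stages were described and not tested. Gene ends and spans came from RefSeq (GRCm38.p6, whose chromosomes mm10 shares), and strand from its promoter table. Each whole-number pileup and its background were recovered from the fold and the −log10 p-value; they returned the deposited −log10 p-value within 0.001 for at least 99.9% of peaks in each list. The recovery and the window counts were tested on simulated data. To scale a list, pileup and background were multiplied by the ratio of the 2 lists' lowest backgrounds, without random draws, and peaks still reaching the lowest −log10 p-value of the target list were kept.

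The members and gene lists were chosen with earlier results of these data known. All 32 members are accounted for. Given stage by stage are 15 listed genes, those covered in all 8 lists or in none, those covered on days 8 and 10 but not on days 0, 4 and 6, and the member of each role with the most peaks. The 3 best-scored regions of each class are named. Alternatives were the better-scored 50% of each list, equal list lengths, summit overlap, scaling to day 8 or day 12, a 2.5 kb end window, the start end alone, and a flank of 0 or 50 kb. Leaving out members near another gene's end and counting summits within 500 bp of the start were chosen after seeing the data. Python 3.11.15, numpy 2.4.6, pandas 2.3.3 and scipy 1.17.1 were used.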

Additional observations from a re-analysis of the deposited data

How the results depend on the processing

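No paired analysis was possible because each stage has 1 deposited list for its 2 samples. Counts of covered ends out of 32 that moved by over 1.5 times were as follows, the cause not being tested beyond the smaller lists that each stricter setting makes. With the better-scored 50% of each list they were 3 on day 0 (41.4% of all genes), 5 on day 2 (50.2%), 3 on day 4 (40.6%), 3 on day 6 (42.6%) and 17 on day 8 (46.8%). With lists of equal length they were 5, 3, 5 and 4 on days 0, 2, 4 and 6 (46.9%, 44.6%, 47.9% and 44.3% of all genes). Scaling to day 8 gave 11 on day 2 and 4 on day 6. Scaling to day 12 gave 1, 3, 3 and 1 on days 0, 2, 4 and 6 and 9 in iPSC. Requiring the summit in the window gave 5 on day 6 (52.0% of all genes). The 2.5 kb window gave 20 on day 0, 17 on day 6 and 17 on day 12. The ratio of peaks to all genes without a flank was 0.784 on day 0, 0.515 on day 4, 0.719 on day 6 and 1.09 on day 12. The other 90 values, among them all with a 50 kb flank or the start end alone, stayed within 1.5 times. Depth limits the lists of day 12 and day 8 most: a gene without a peak there was not detectable as covered at that depth, which does not show closed chromatin.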
